A study of Rattus norvegicus with 12 samples.

Results

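Genes of cholesterol and fatty acid synthesis were examined in the renal cortex of rats given water or tert-butyl alcohol (TBA), an industrial solvent that also forms in the body from fuel ethers. The set holds 32 gene symbols, listed by pathway: 18 enzymes that build cholesterol from acetyl-CoA, 6 genes that regulate the sterol pathway or carry sterol, and 8 enzymes that make, lengthen or desaturate fatty acids. A probe was found for 31 of them and 30 were tested, out of 29603 features tested on the array. The animals were 12 male Sprague-Dawley rats, bought at 5 weeks of age, in 4 groups of 3. TBA CO2-O2 rats were dosed with 1000 mg/kg of TBA daily over 4 weeks and killed under a mixture of 4 parts CO2 and 1 part O2, and vehicle CO2-O2 rats received water over the same time and the same gas. TBA isoflurane rats received the same dose of TBA and were killed under isoflurane, an inhaled anesthetic, and vehicle isoflurane rats received water and isoflurane. Samples were taken 24 h after the last dose. One sex, 1 dose and 1 time were studied, and the labels call the rats of a group biological replicates.

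Cells make cholesterol from acetyl-CoA through mevalonate, isoprenoid units, squalene and lanosterol, and make fatty acids from the same acetyl-CoA by way of malonyl-CoA. Both branches are switched on by the transcription factors SREBP, which are held in the endoplasmic reticulum by Insig proteins when sterol is plentiful and are escorted by Scap to the Golgi for cleavage when it is scarce. In the kidney the cortex is mostly proximal tubule, a cell type that burns fatty acids for energy and needs sterol for its brush border and endosomes.

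Signal was measured on one-colour arrays, 1 per rat, and is given as log2 of the spot intensity minus the 75th percentile of its array. A level of 1.00 is thus 1 log2 unit above that percentile, and levels are compared between rats for 1 probe, never between genes. The exception is cell type markers, which are also given as a sum over genes. Differences are log2 differences with the standard error (SE) from limma, a linear model fitted to all features, with 3 rats in each group. Between 61.6% and 71.0% of probes were well above background on an array, and the correlation between arrays within groups was 0.989 to 0.994. The 12 arrays lay on 3 slides: TBA CO2-O2 rat 3 shared slide 1 with the vehicle CO2-O2 group, the other two TBA CO2-O2 rats shared slide 2 with the vehicle isoflurane group, and the TBA isoflurane group was on slide 3. TBA and slide therefore cannot be told apart under isoflurane, nor can gas and slide among rats of the same treatment. Markers of renal cortex cells were checked against the label: all 9 proximal tubule markers, all 5 podocyte markers and all 7 collecting duct markers were well above background on every array. Of the 4 distal convoluted tubule markers 2 were, Pvalb was so on no array and Trpm6 had no probe. In whole tissue, fewer cells of a type and less RNA per cell cannot be told apart.

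All 30 tested members were well above background on all 12 arrays. No member passed an adjusted p of 0.05 in any of 5 comparisons. Among all features 0.149% passed for TBA minus vehicle under CO2-O2, 0.395% for TBA minus vehicle under isoflurane and 1.88% for the TBA effect averaged over both anesthetics. For the difference of the TBA effects between anesthetics 0% passed, and for isoflurane minus CO2-O2 averaged over both treatments 0.287%. At an unadjusted p of 0.05, 5 of 30 members (16.7%) passed under CO2-O2, Fads2 higher with TBA and Lss, Cyp51, Acly and Mvd lower, against 14.3% of all features. Under isoflurane it was 3 of 30 (10.0%), Dhcr7 and Tm7sf2 higher and Elovl6 lower, against 17.8%. The averaged TBA effect had 8 of 30 (26.7%), with Dhcr7, Fads2, Tm7sf2 and Scap higher and Lss, Me1, Mvd and Idi1 lower, against 19.0% of all features. The difference of the effects had 4 of 30 (13.3%), against 12.1%, and isoflurane minus CO2-O2 had 7 of 30 (23.3%), against 17.2%. These shares lay within 10 percentage points of those of all features, on both sides of them.

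The intervals show the precision of each gene's estimate given the spread between rats of a group. They hold no slide or scan day term, so they do not cover a difference between slides. In the averaged TBA effect the 95% interval of all 30 members lay within 1 log2 unit either way, a doubling or halving, and that of 27 within 0.5. The 3 that reached past 0.5 were Lss, Dhcr7 and Me1. Within 1 anesthetic 29 of 30 intervals lay within 1 log2 unit, the exceptions being Lss under CO2-O2 and Dhcr7 under isoflurane.

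TBA and vehicle rats did not overlap for 8 of 30 members under CO2-O2 (26.7%), where 21.0% of all features did not overlap. Of these 6 were lower with TBA (Mvd, Fdps, Lss, Cyp51, Hsd17b7 and Me1) and 2 were higher (Dhcr7 and Fads2). Under isoflurane it was 4 of 30 (13.3%), all higher with TBA (Tm7sf2, Ebp, Dhcr7 and Srebf2), where 24.0% of all features did not overlap. Dhcr7 alone was on both lists. The heat map of all tested members shows each rat against the vehicle mean of its own anesthetic.

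**Figure D1:**
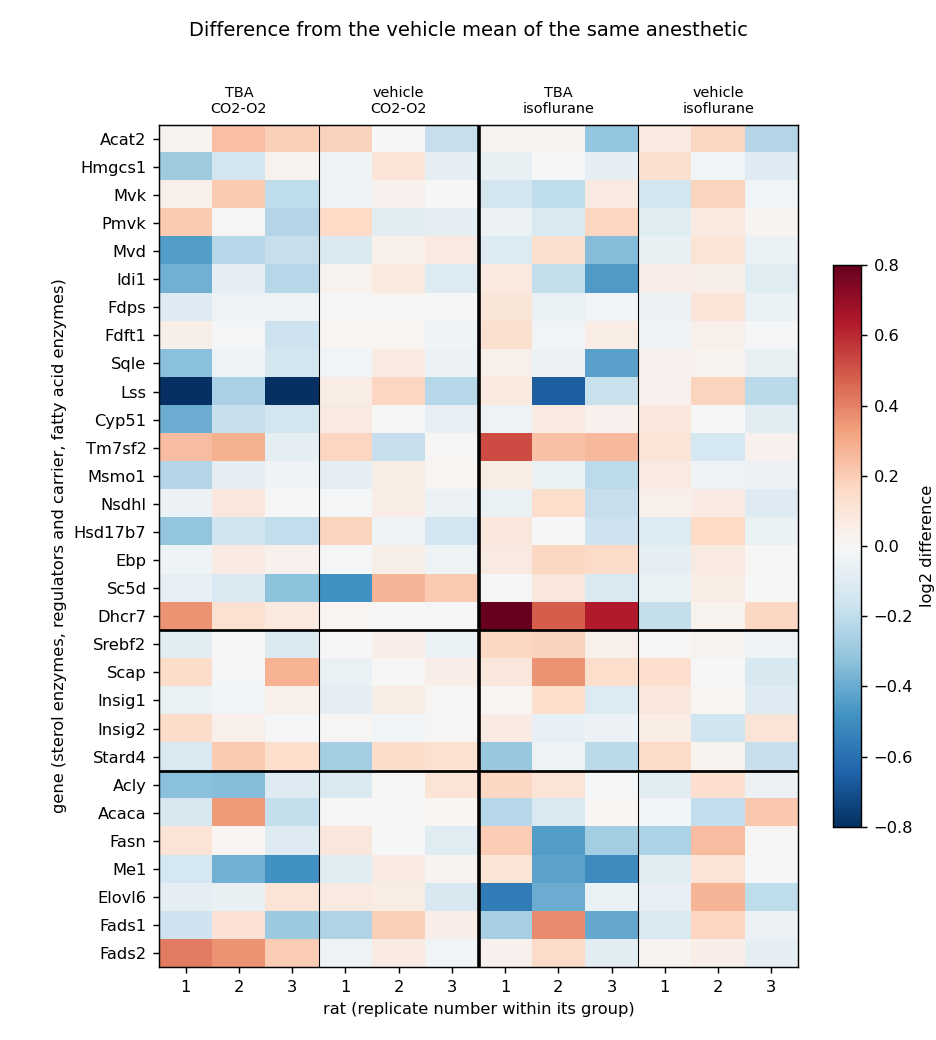
Log2 difference of each rat (columns, replicate number within its group) from the mean of the 3 vehicle rats of the same anesthetic, for the 30 tested members (rows, by branch); red is higher and blue lower, and colours saturate at the ends of the scale. Dhcr7 is red in all 3 TBA isoflurane rats, Lss is blue in all 3 TBA CO2-O2 rats, and most other rows are pale in all groups.

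Among the 18 sterol enzymes the median TBA difference was -0.09 under CO2-O2, with 6 members higher and 12 lower, and -0.03 under isoflurane, with 7 higher and 11 lower. Over all features the medians of the same comparisons were 0.015 and 0.017, with 53.6% of features higher in each. In the averaged effect 5 sterol enzymes were higher and 13 lower, with a median of -0.06. Over all features the median was 0.014, with 53.9% higher. The median over the members in single rats was -0.08, -0.04 and -0.15 from the vehicle mean in TBA CO2-O2 rats, against 0.00, 0.04 and -0.04 in vehicle CO2-O2 rats. TBA CO2-O2 rat 2 stood at the level of the lowest vehicle rat and the other two below all vehicle rats. Under isoflurane it was 0.05, 0.00 and -0.10 in TBA rats, against 0.00, 0.06 and -0.05 in vehicle rats, and the groups overlapped.

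The pathway begins with Acat2, the cytosolic thiolase that joins acetyl-CoA, and Hmgcs1, which makes HMG-CoA. Hmgcs1 was at 2.68, 2.82 and 3.00 in TBA CO2-O2 rats, against 2.94, 3.07 and 2.89 in vehicle CO2-O2 rats. Under isoflurane it was at 2.84, 2.90 and 2.83 in TBA rats, against 3.03, 2.88 and 2.80 in vehicle rats. The groups overlapped under both gases, and the averaged effect was -0.09 ± 0.07 (SE; 95% interval -0.23 to 0.06, adjusted p = 0.494). Acat2 stood at 0.03 ± 0.10 in the averaged effect.

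Mvk, Pmvk and Mvd then phosphorylate and decarboxylate mevalonate, and Idi1 isomerises the isoprenoid unit that results. Mvd was at 0.11, 0.33 and 0.38 in TBA CO2-O2 rats, against 0.45, 0.60 and 0.63 in vehicle CO2-O2 rats, and at 0.58, 0.82 and 0.35 in TBA isoflurane rats, against 0.64, 0.80 and 0.64 in vehicle isoflurane rats. All TBA rats were below all vehicle rats under CO2-O2, while under isoflurane 1 TBA rat lay above every vehicle rat. The averaged effect on Mvd was -0.20 ± 0.09 (adjusted p = 0.253). Idi1 was at 0.85, 1.16 and 1.01 in TBA CO2-O2 rats, against 1.26, 1.32 and 1.13 in vehicle CO2-O2 rats. Its levels in TBA isoflurane rats were 1.34, 1.07 and 0.81, against 1.31, 1.31 and 1.16 in vehicle isoflurane rats. The lowest Idi1 value of each gas was a TBA rat's, the groups overlapped, and the averaged effect was -0.21 ± 0.09 (adjusted p = 0.257). Pmvk stood at -0.00 ± 0.09 and Mvk at -0.04 ± 0.08 in the averaged effect.

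Fdps and Fdft1 couple isoprenoid units up to squalene, and Sqle, the squalene epoxidase, makes the first oxygenated intermediate. Sqle was at 1.42, 1.72 and 1.61 in TBA CO2-O2 rats, against 1.73, 1.82 and 1.71 in vehicle CO2-O2 rats. In TBA isoflurane rats it was at 1.83, 1.74 and 1.35, against 1.82, 1.82 and 1.73 in vehicle isoflurane rats. TBA isoflurane rat 3 was the lowest of all 12 rats and TBA isoflurane rat 1 the highest, and the averaged effect was -0.16 ± 0.09 (adjusted p = 0.344). Fdps (-0.03 ± 0.04) and Fdft1 (0.01 ± 0.05) had some of the narrowest intervals among the members. For Fdps that interval ran from -0.13 to 0.07, although its TBA and vehicle rats did not overlap under CO2-O2.

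Lss, the cyclase that turns squalene epoxide into lanosterol, had the lowest averaged effect of the members. It was at -0.11, 0.53 and -0.16 in TBA CO2-O2 rats, against 0.84, 0.95 and 0.55 in vehicle CO2-O2 rats, a difference of -0.70 ± 0.23 (95% interval -1.21 to -0.19, adjusted p = 0.226). In TBA isoflurane rats it was at 0.92, 0.18 and 0.66, against 0.87, 1.01 and 0.62 in vehicle isoflurane rats, a difference of -0.25 ± 0.23 (adjusted p = 0.613). TBA rats 1 and 3 under CO2-O2 lay far below the rest, TBA rat 2 lay just below the lowest vehicle rat, and under isoflurane 1 of 3 TBA rats was low. On slide 1, TBA CO2-O2 rat 3 was 0.95 log2 units below the mean of the vehicle rats. The averaged effect was -0.48 ± 0.16 (adjusted p = 0.153), and both Lss probes gave it, at -0.48 and -0.46. Lss also varied more within groups than any other member, with a pooled SD of 0.30, where the lowest member SD was 0.06.

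After lanosterol come Cyp51, which removes a methyl group, the reductase Tm7sf2, the demethylation enzymes Msmo1, Nsdhl and Hsd17b7, the isomerase Ebp and the desaturase Sc5d. Tm7sf2 was at 2.73, 2.76 and 2.41 in TBA CO2-O2 rats, against 2.65, 2.30 and 2.49 in vehicle CO2-O2 rats. Under isoflurane it was at 2.83, 2.55 and 2.57 in TBA rats, against 2.42, 2.17 and 2.35 in vehicle rats. The groups were apart under isoflurane and overlapped under CO2-O2. The averaged effect on Tm7sf2 was 0.25 ± 0.09 (adjusted p = 0.190), with its probes at 0.24 and 0.30. On slide 1, TBA CO2-O2 rat 3 stood at -0.07 from the mean of the vehicle rats. With scan day as a term, which rests on the same rat, the averaged effect was 0.13. Cyp51 differed by -0.24 ± 0.08 under CO2-O2 (adjusted p = 0.230) and by 0.02 ± 0.08 under isoflurane, and the difference between these was 0.27 ± 0.11 (adjusted p = 0.402). The averaged effects on Msmo1, Nsdhl, Hsd17b7, Ebp and Sc5d ran from -0.12 to 0.08, with adjusted p from 0.376 to 0.960.

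Dhcr7, the reductase of the last step to cholesterol, came closest to the threshold. It was at 2.40, 2.17 and 2.12 in TBA CO2-O2 rats, against 2.06, 2.04 and 2.03 in vehicle CO2-O2 rats, a difference of 0.19 ± 0.16 (adjusted p = 0.629). In TBA isoflurane rats it was at 2.48, 1.84 and 1.99, against 1.17, 1.38 and 1.53 in vehicle isoflurane rats, a difference of 0.75 ± 0.16 (95% interval 0.40 to 1.1, adjusted p = 0.0727). Every TBA rat lay above every vehicle rat of its gas. The 3 vehicle isoflurane rats were the lowest of the 12, and the TBA isoflurane rats lay on both sides of the vehicle CO2-O2 rats. The averaged effect was 0.47 ± 0.11 (95% interval 0.22 to 0.72, adjusted p = 0.0631). It passed with normexp background correction (adjusted p = 0.0330) and with a trended, robust spread (adjusted p = 0.0374), and its adjusted p under the other alternatives ran up to 0.219. The difference between the 2 TBA effects was 0.56 ± 0.22 (adjusted p = 0.378). On slide 1, TBA CO2-O2 rat 3 stood at 0.08 from the vehicle mean. A single Dhcr7 probe was measured, and in the isoflurane comparison TBA and vehicle arrays were on different slides.

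The signal of 9 members is plotted for each rat, and 3 promoters of sterol enzymes are printed here because these members had the smallest p among the sterol enzymes in the averaged effect. Each runs from 250 bases before the start of the gene to 50 bases from the start on, 5′ to 3′ on the gene's strand, from RefSeq on the rat assembly GRCr8: Dhcr7 at chr1:208444184-208444483 (plus strand), Lss at chr20:12118181-12118480 (minus strand) and Tm7sf2 at chr1:212789492-212789791 (minus strand). Capitals mark boxes for partners of SREBP, CCAAT for NF-Y and GGGCGG for Sp1, on either strand, so that ATTGG and CCGCCC are their reverse complements.
Dhcr7: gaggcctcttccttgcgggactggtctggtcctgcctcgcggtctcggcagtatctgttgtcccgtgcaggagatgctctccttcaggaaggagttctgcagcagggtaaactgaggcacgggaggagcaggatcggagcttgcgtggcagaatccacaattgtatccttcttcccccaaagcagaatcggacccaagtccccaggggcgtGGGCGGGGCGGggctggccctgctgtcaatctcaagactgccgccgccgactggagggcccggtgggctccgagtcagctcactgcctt
Lss: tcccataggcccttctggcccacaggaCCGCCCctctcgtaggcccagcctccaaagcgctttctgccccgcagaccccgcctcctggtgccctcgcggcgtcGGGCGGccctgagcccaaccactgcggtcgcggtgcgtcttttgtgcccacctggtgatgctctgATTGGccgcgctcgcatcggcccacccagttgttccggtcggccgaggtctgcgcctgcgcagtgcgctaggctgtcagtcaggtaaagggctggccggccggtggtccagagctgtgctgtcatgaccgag
Tm7sf2: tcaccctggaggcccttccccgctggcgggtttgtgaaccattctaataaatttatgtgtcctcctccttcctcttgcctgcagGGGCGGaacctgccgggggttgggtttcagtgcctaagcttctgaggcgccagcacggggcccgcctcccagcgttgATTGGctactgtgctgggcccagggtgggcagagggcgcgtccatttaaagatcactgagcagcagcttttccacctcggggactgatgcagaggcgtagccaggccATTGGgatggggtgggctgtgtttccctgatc

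Of the 3 windows, that of Dhcr7 held 2 Sp1 boxes, which share 1 base, and no CCAAT, that of Lss held 1 CCAAT and 2 Sp1 boxes, and that of Tm7sf2 held 2 CCAAT and 1 Sp1 box. Windows were on hand for 15 sterol enzymes, of which 12 held CCAAT and 13 held GGGCGG. Of all 33469 windows of the same length in the table, 37.5% held CCAAT and 33.1% held GGGCGG. A core of the sterol regulatory element, TCACNCCAC on either strand, was in 1.12% of all windows and in 0 of the 26 windows of members. No match says only that these letters are not in this window, and a match is a run of letters, not a shown binding site.

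**Figure D2:**
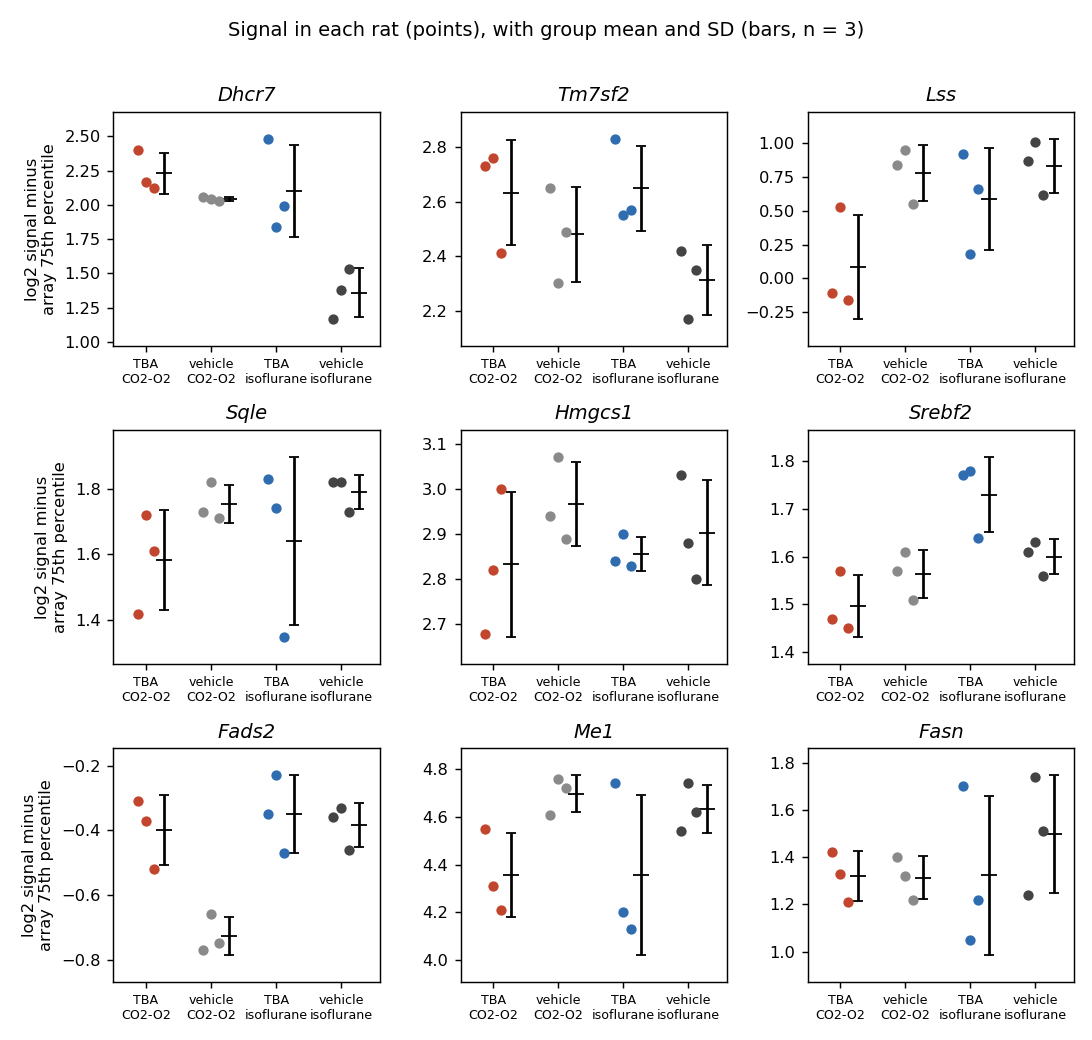
Log2 signal minus the array's 75th percentile in each of the 12 rats (points) for 9 members, with the group mean and SD beside the points (n = 3 rats a group); axes differ between panels and do not start at 0. Dhcr7 is lowest in the vehicle isoflurane rats, Fads2 is lowest in the vehicle CO2-O2 rats, and Fasn, Hmgcs1 and Sqle overlap between TBA and vehicle under both gases.

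Among the regulators, Srebf2 encodes SREBP2, the main activator of sterol genes, Scap is its escort, Insig1 and Insig2 retain it, and Stard4 carries cholesterol through the cytosol. Srebf1, which encodes SREBP1, the main activator of fatty acid synthesis, had no probe whose accession matched it, so it was not measured here. The averaged effects on the 5 tested genes ran from -0.05 to 0.17 (median 0.02), with 4 higher and 1 lower and adjusted p from 0.240 to 0.985. Insig1, itself a target of SREBP, was at 2.56, 2.59 and 2.65 in TBA CO2-O2 rats, against 2.54, 2.67 and 2.62 in vehicle CO2-O2 rats. In TBA isoflurane rats Insig1 was at 2.60, 2.72 and 2.47, against 2.67, 2.59 and 2.48 in vehicle isoflurane rats. These groups overlapped, and the averaged effect was 0.00 ± 0.06 (95% interval -0.12 to 0.13).

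Srebf2 was at 1.47, 1.57 and 1.45 in TBA CO2-O2 rats, against 1.57, 1.61 and 1.51 in vehicle CO2-O2 rats. It was at 1.77, 1.78 and 1.64 in TBA isoflurane rats, against 1.61, 1.63 and 1.56 in vehicle isoflurane rats. TBA rats were above vehicle rats under isoflurane and overlapped with them under CO2-O2. The TBA difference for Srebf2 was -0.06 ± 0.06 under CO2-O2 (adjusted p = 0.686) and 0.13 ± 0.06 under isoflurane (adjusted p = 0.307). A second, dimmer Srebf2 probe, also well above background on all 12 arrays, did not share the isoflurane difference. That probe gave -0.01 under CO2-O2 and -0.10 under isoflurane. Scap was at 2.29, 2.13 and 2.42 in TBA CO2-O2 rats, against 2.09, 2.14 and 2.19 in vehicle CO2-O2 rats, and at 2.16, 2.43 and 2.21 in TBA isoflurane rats, against 2.20, 2.06 and 1.94 in vehicle isoflurane rats. Its groups overlapped under both gases, and its averaged effect was 0.17 ± 0.07 (adjusted p = 0.240). Stard4 was at 1.49, 1.82 and 1.76 in TBA CO2-O2 rats, against 1.34, 1.76 and 1.74 in vehicle CO2-O2 rats, and at 1.60, 1.86 and 1.69 in TBA isoflurane rats, against 2.06, 1.93 and 1.72 in vehicle isoflurane rats. Its averaged effect was -0.05 ± 0.10 (adjusted p = 0.802).

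The 7 tested fatty acid enzymes had a median TBA difference of -0.01 under CO2-O2, with 3 higher and 4 lower, and of -0.11 under isoflurane, with 2 higher and 5 lower. In the averaged effect 1 was higher and 6 were lower, with a median of -0.09, where 53.9% of all features were higher. In single rats the branch median was -0.13, 0.02 and -0.10 from the vehicle mean in TBA CO2-O2 rats, against -0.04, 0.06 and 0.02 in vehicle CO2-O2 rats. It was 0.03, -0.12 and -0.09 in TBA isoflurane rats, against -0.09, 0.14 and -0.05 in vehicle isoflurane rats. These ranges overlapped under both gases.

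Acly, which makes cytosolic acetyl-CoA from citrate for both branches, differed by -0.26 ± 0.10 under CO2-O2 (adjusted p = 0.273) and by 0.09 ± 0.10 under isoflurane, and the difference between these was 0.35 ± 0.14 (adjusted p = 0.373). Its second probe gave -0.15 under CO2-O2 and -0.04 under isoflurane, with a difference of 0.12 between these. Acaca makes malonyl-CoA and Fasn, the fatty acid synthase, assembles palmitate from it. Fasn was at 1.42, 1.33 and 1.21 in TBA CO2-O2 rats, against 1.40, 1.32 and 1.22 in vehicle CO2-O2 rats, a difference of 0.01 ± 0.17. In TBA isoflurane rats it was at 1.70, 1.05 and 1.22, against 1.24, 1.74 and 1.51 in vehicle isoflurane rats, a difference of -0.18 ± 0.17 (adjusted p = 0.637). The groups overlapped, and the averaged effect on Fasn was -0.08 ± 0.12 (95% interval -0.35 to 0.18), beside -0.05 ± 0.10 for Acaca.

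Me1, the cytosolic malic enzyme that supplies NADPH for lipid synthesis, had the lowest averaged effect of this branch. It was at 4.55, 4.31 and 4.21 in TBA CO2-O2 rats, against 4.61, 4.76 and 4.72 in vehicle CO2-O2 rats, and at 4.74, 4.20 and 4.13 in TBA isoflurane rats, against 4.54, 4.74 and 4.62 in vehicle isoflurane rats. All TBA rats were below all vehicle rats under CO2-O2, and 2 of 3 were under isoflurane, where TBA rat 1 was level with the highest vehicle rat. The averaged effect was -0.31 ± 0.11 (adjusted p = 0.168), with its 3 probes from -0.32 to -0.31. Without TBA isoflurane rat 1 it was -0.40 and passed (adjusted p = 0.0491). On slide 1, TBA CO2-O2 rat 3 stood at -0.49 from the mean of the vehicle rats.

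Elovl6, Fads1 and Fads2 lengthen and desaturate fatty acids. Fads2 was at -0.31, -0.37 and -0.52 in TBA CO2-O2 rats, against -0.77, -0.66 and -0.75 in vehicle CO2-O2 rats, a difference of 0.33 ± 0.08 (95% interval 0.14 to 0.51, adjusted p = 0.150). In TBA isoflurane rats Fads2 was at -0.35, -0.23 and -0.47, against -0.36, -0.33 and -0.46 in vehicle isoflurane rats, a difference of 0.03 ± 0.08. The vehicle CO2-O2 rats were the lowest 3 of the 12, and the other groups shared 1 range. The difference between the 2 TBA effects on Fads2 was -0.29 ± 0.11 (adjusted p = 0.373) and the averaged effect 0.18 ± 0.06 (adjusted p = 0.135), with its probes at 0.06 and 0.18. The slide 1 difference of TBA CO2-O2 rat 3 from the vehicle mean was 0.21. With scan day as a term, which rests on the same rat, the averaged effect was 0.12. Fads1 stood at -0.11 ± 0.14 in the averaged effect, and Elovl6 differed by -0.01 ± 0.15 under CO2-O2 and by -0.34 ± 0.15 under isoflurane (adjusted p = 0.277). Scd, a stearoyl-CoA desaturase, was well above background on 1 of 12 arrays, that of vehicle CO2-O2 rat 2, and was not tested.

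Promoters of the 3 fatty acid enzymes with the smallest p in the averaged effect, among those in the table, are given in the same form: Fads2 at chr1:216171984-216172283 (minus strand), Me1 at chr8:96540195-96540494 (minus strand) and Acly at chr10:85963582-85963881 (minus strand), with CCAAT and GGGCGG on either strand in capitals.
Fads2: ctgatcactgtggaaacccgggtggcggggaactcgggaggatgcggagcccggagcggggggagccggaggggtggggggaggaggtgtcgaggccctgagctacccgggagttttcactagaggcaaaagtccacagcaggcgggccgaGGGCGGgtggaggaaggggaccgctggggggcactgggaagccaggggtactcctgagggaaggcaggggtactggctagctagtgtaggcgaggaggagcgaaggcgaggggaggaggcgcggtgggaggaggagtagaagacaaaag
Me1: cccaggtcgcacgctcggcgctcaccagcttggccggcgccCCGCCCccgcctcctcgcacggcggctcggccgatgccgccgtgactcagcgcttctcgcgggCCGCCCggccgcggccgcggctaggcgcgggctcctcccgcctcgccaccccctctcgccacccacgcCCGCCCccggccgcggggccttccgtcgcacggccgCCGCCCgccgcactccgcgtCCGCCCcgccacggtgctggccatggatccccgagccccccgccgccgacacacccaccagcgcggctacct
Acly: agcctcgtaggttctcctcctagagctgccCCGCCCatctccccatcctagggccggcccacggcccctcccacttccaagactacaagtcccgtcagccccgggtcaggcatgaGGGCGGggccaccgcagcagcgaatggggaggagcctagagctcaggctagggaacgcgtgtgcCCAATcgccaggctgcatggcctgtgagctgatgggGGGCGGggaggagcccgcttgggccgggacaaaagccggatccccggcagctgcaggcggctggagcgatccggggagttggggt

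The Fads2 window held 1 Sp1 box, that of Me1 held 5 and that of Acly held 3. Only the Acly window of these 3 held CCAAT, once. Among the 5 fatty acid enzymes with a window, 2 held CCAAT and 4 held GGGCGG.

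**Figure D3:**
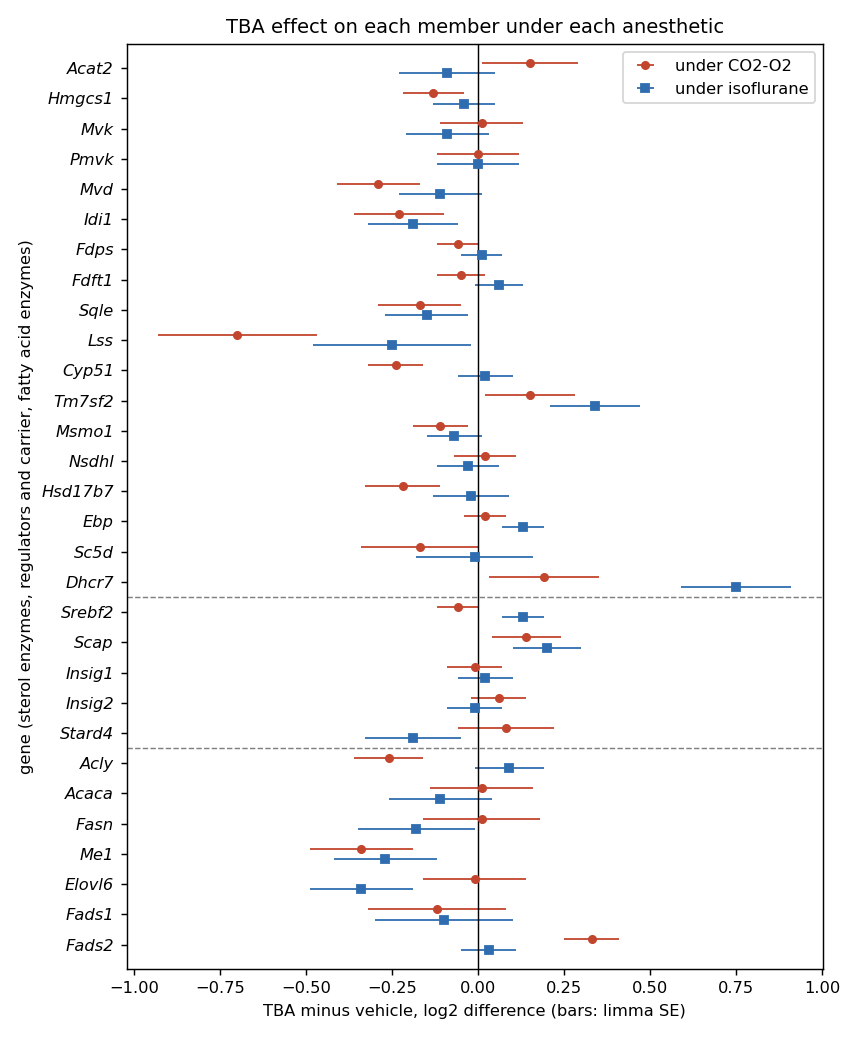
TBA minus vehicle, in log2 units, for each tested member under CO2-O2 (red circles) and under isoflurane (blue squares), with the SE from limma as bars (3 rats in each group); dashed lines part the sterol enzymes, the regulators and carrier, and the fatty acid enzymes. Most points lie near 0, Lss under CO2-O2 lies at -0.70 and Dhcr7 under isoflurane at 0.75.

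Set side by side, the branches did not part in single rats. The sterol median minus the fatty acid median was 0.05, -0.06 and -0.05 in TBA CO2-O2 rats, against 0.04, -0.02 and -0.06 in vehicle CO2-O2 rats. It was 0.02, 0.12 and -0.01 in TBA isoflurane rats, against 0.09, -0.08 and 0.00 in vehicle isoflurane rats. TBA and vehicle rats overlapped in this measure under both gases, and it was given no test. The plot of branch medians shows the same values branch by branch.

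Counts of sterol enzymes above their own group's mean differed between rats of 1 group. In TBA CO2-O2 rat 2, 16 of the 18 enzymes lay above their own group's mean, against 6 in rat 1 and 9 in rat 3. Among the vehicle isoflurane rats it was 15 of 18 in rat 2, 9 in rat 1 and 4 in rat 3. TBA isoflurane rats had 11, 10 and 6, and vehicle CO2-O2 rats 9, 12 and 5. The 18 values of a rat share 1 array and its scaling, so they are not independent. In TBA CO2-O2 rat 2 the median of the 18 was 0.06 above their group means. The other branches varied as well. Of 7 fatty acid enzymes, 6 lay above their group's mean in vehicle isoflurane rat 2 and 1 in rat 1. Of the 5 regulators and carrier, 5 did in vehicle isoflurane rat 1 and 0 in TBA isoflurane rat 3. The same count over all features was not made.

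**Figure D4:**
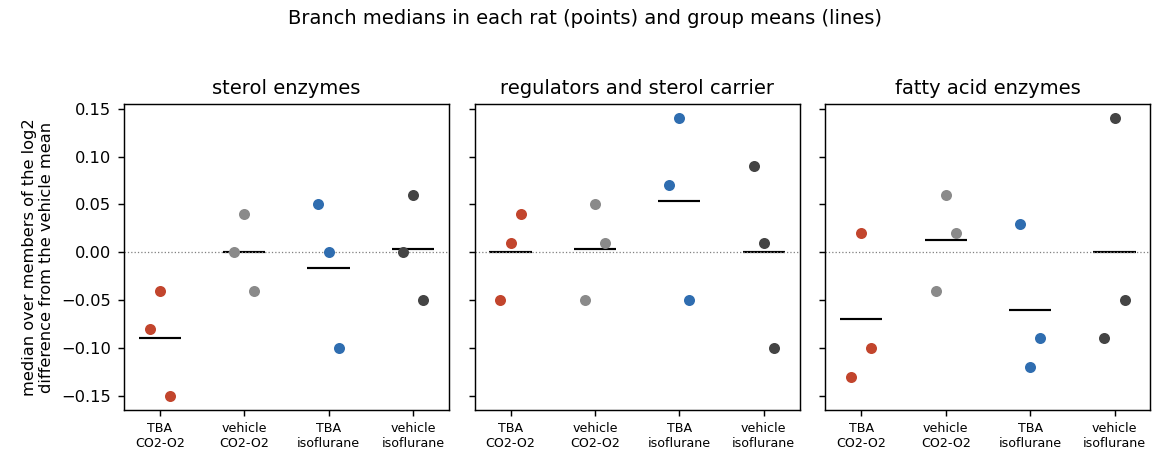
Median over the tested members of a branch of the log2 difference from the vehicle mean of the same anesthetic, 1 point per rat, with the group mean as a line (n = 3 rats a group; 18 sterol enzymes, 5 regulators and carrier, 7 fatty acid enzymes). All values lie between -0.15 and 0.14, and in no branch are the TBA rats of a gas wholly apart from its vehicle rats.

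The gas used at the kill was compared over both treatments, isoflurane minus CO2-O2. Of the 30 members 21 were higher and 9 lower under isoflurane (median 0.05). Over all features 51.7% were higher, with a median of 0.005. Elovl6, the elongase of palmitate, had the highest difference. Its level was 1.63, 1.79 and 2.14 in TBA isoflurane rats and 2.12, 2.46 and 1.98 in vehicle isoflurane rats, against 1.63, 1.64 and 1.81 in TBA CO2-O2 rats and 1.78, 1.76 and 1.58 in vehicle CO2-O2 rats. Vehicle rats of the 2 gases did not overlap and TBA rats did, and the difference was 0.32 ± 0.11 (adjusted p = 0.178). Mvk, the mevalonate kinase, was at -1.62, -1.68 and -1.40 in TBA isoflurane rats and -1.62, -1.30 and -1.49 in vehicle isoflurane rats, against -1.74, -1.57 and -1.98 in TBA CO2-O2 rats and -1.81, -1.75 and -1.79 in vehicle CO2-O2 rats. Here too the vehicle rats alone were apart, and the difference was 0.26 ± 0.08 (adjusted p = 0.177). Lss stood between these at 0.28 ± 0.16 (adjusted p = 0.408). All vehicle CO2-O2 arrays were on slide 1 and scanned on day 1. All vehicle isoflurane arrays were on slide 2 and scanned on day 2. Gas, slide and scan day therefore cannot be told apart among vehicle rats.

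Dhcr7 had the lowest difference between the gases, -0.41 ± 0.11 (adjusted p = 0.129). Its values above show where this lay: vehicle isoflurane rats ranged from 1.17 to 1.53, against 2.03 to 2.06 in vehicle CO2-O2 rats, while TBA isoflurane rats (1.84 to 2.48) overlapped with TBA CO2-O2 rats (2.12 to 2.40). Pmvk, the phosphomevalonate kinase, was at 0.04, -0.03 and 0.26 in TBA isoflurane rats and -0.01, 0.17 and 0.11 in vehicle isoflurane rats, against 0.46, 0.26 and 0.02 in TBA CO2-O2 rats and 0.41, 0.17 and 0.18 in vehicle CO2-O2 rats. Its difference was -0.16 ± 0.09 (adjusted p = 0.386), and that of Tm7sf2 was -0.07 ± 0.09. All isoflurane arrays were scanned on day 2, as were 2 of the CO2-O2 arrays. With scan day as a term the differences were 0.44 for Elovl6, 0.04 for Mvk, 0.03 for Lss, -0.39 for Pmvk and -0.51 for Dhcr7. Only the TBA CO2-O2 group was scanned on both days, rat 3 on day 1 and rats 1 and 2 on day 2. The day term was thus estimated from 1 array against 2, and these values rest on rat 3 of that group.

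Other genes of lipid metabolism were looked at in 3 lists. Of 14 tested genes for other sterol and isoprenoid enzymes and SREBP processing, 1 passed, under CO2-O2 and in the averaged effect. Among all features 0.149% and 1.88% passed in these comparisons. The gene was Nus1, which works in dolichol synthesis, a branch off the isoprenoid pathway. It was at 4.39, 4.34 and 4.32 in TBA CO2-O2 rats, against 2.90, 3.02 and 2.80 in vehicle CO2-O2 rats, and at 3.99, 4.41 and 4.46 in TBA isoflurane rats, against 3.79, 3.37 and 3.28 in vehicle isoflurane rats. TBA rats were above vehicle rats under both gases, and the averaged effect was 1.12 ± 0.11 (adjusted p = 0.00421). Its 3 probes did not share this: their averaged effects ran from -0.02 to 1.12. At an unadjusted p of 0.05, 6 of the 14 (42.9%) passed in the averaged effect, 2 higher and 4 lower, where 19.0% of all features did.

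None of 17 genes of sterol uptake, efflux and storage and none of 23 other lipogenic genes passed by limma in the TBA comparisons. At most 1.88% of all features passed in any of these comparisons. At an unadjusted p of 0.05 the averaged effect had 3 of 17 (17.6%) and 4 of 23 (17.4%), where 19.0% of all features passed. The 3 with the smallest p in the first list were the lipoprotein receptor Scarb1 (0.28 ± 0.09, adjusted p = 0.146), the endosomal sterol carrier Stard3 (-0.12 ± 0.04, adjusted p = 0.179) and the lysosomal cholesterol exporter Npc1 (-0.15 ± 0.06, adjusted p = 0.233). In the second list they were Mid1ip1, an activator of acetyl-CoA carboxylase (0.53 ± 0.12, adjusted p = 0.0513), the elongase Elovl7 (-0.17 ± 0.07, adjusted p = 0.218) and the triglyceride enzyme Dgat1 (0.10 ± 0.04, adjusted p = 0.224). Mid1ip1 was at 2.47, 3.05 and 3.03 in TBA CO2-O2 rats, against 2.70, 2.43 and 2.43 in vehicle CO2-O2 rats, and at 3.36, 3.23 and 3.15 in TBA isoflurane rats, against 2.60, 2.67 and 2.29 in vehicle isoflurane rats. One TBA CO2-O2 rat lay among the vehicle rats and the isoflurane groups were apart.

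Markers of some cell types differed between the groups. The summed scaled signal of the 9 proximal tubule markers was 1400 to 1500 in TBA CO2-O2 rats, against 1000 to 1290 in vehicle CO2-O2 rats, and 1530 to 1660 in TBA isoflurane rats, against 1280 to 1380 in vehicle isoflurane rats. Of these markers 2 of 9 passed as higher in the averaged effect, where 1.88% of all features passed in either direction, and 8 of 9 were higher. Under isoflurane all 9 were higher. Under CO2-O2 7 were higher and 2 lower, the lowest at -1.19. TBA and vehicle rats did not overlap under CO2-O2 for 7 of 9 markers (77.8%), 5 higher and 2 lower. Under isoflurane they did not overlap for 7 of 9 (77.8%), all higher with TBA. Among all features 21.0% did not overlap under CO2-O2 and 24.0% under isoflurane. Of 4 thick ascending limb markers with a probe 3 were lower in the averaged effect and 1 was higher. Only 1 marker passed, as lower, where 1.88% of all features passed in either direction. The sum of the 4 markers was 432 to 485 in TBA CO2-O2 rats, against 497 to 564 in vehicle CO2-O2 rats. Under isoflurane it was 354 to 476 in TBA rats, against 357 to 528 in vehicle rats. No immune cell, adipocyte or adrenal cortex marker passed in a TBA comparison. Immune cell markers summed to 28.7 to 35.6 in TBA CO2-O2 rats, against 36.3 to 44.7 in vehicle CO2-O2 rats, and to 36.4 to 47.7 in TBA isoflurane rats, against 40.3 to 50.8 in vehicle isoflurane rats. Adipocytes make fatty acids themselves, and their markers summed to 1.92 to 2.66 in TBA CO2-O2 rats, against 2.79 to 3.24 in vehicle CO2-O2 rats, and to 1.69 to 3.42 in TBA isoflurane rats, against 1.66 to 2.32 in vehicle isoflurane rats. Of 5 adipocyte markers with a probe 3 were well above background on all arrays, and Lep was so on none. Adrenal cortex markers, of a gland that uses cholesterol for steroids, summed to 0.69 to 1.77 in TBA CO2-O2 rats, against 1.23 to 2.28 in vehicle CO2-O2 rats, and to 0.841 to 1.58 in TBA isoflurane rats, against 0.905 to 1.53 in vehicle isoflurane rats, with Cyp11b1, Cyp11b2 and Star not well above background on any array. TBA and vehicle sums were apart under both gases for the proximal tubule and under neither for the adrenal cortex. They were apart under CO2-O2 alone for the thick ascending limb, immune cells and adipocytes. For the distal convoluted tubule the sums were apart under isoflurane alone, at 24.8 to 28.5 in TBA rats against 17.6 to 24.1 in vehicle rats. The part of these markers in the members' values was not tested.

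Probes of 1 gene did not always give the same sign. Of 19 members with several measured probes, all probes of 13 had the same sign in the averaged effect, and 11 members had 1 probe. Those with probes of both signs were Acaca, Acat2, Fdft1, Fdps, Insig1 and Srebf2, each with averaged effects between -0.11 and 0.08.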

How the data were processed

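Scanner files were read as deposited, 1 array per rat. Their spot intensity values come from Agilent Feature Extraction 10.7, with background subtraction and spatial detrending but no scaling across arrays, per the file headers. The submitters' series table was read as the ratio of the deposited intensity to each array's 75th percentile. It was compared with the scanner files by correlation of log2 values, which does not show the divisor. Each column of that table matched the scanner file of another replicate in the same group, so rats are numbered here by scanner file. Log2 values were computed from the deposited intensity.

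Probes were named by unversioned accession through RefSeq (GRCr8). Control spots and outlier flags were dropped. A probe was kept where all 3 arrays of any group had it well above background, and the brightest kept probe stood for its symbol. A limma 3.58.1 fit (R 4.3.3) with 4 group means and no covariate gave all p-values, adjusted by Benjamini-Hochberg over 29603 features. It was tested on simulated data. The number of arrays limits the precision, and branch medians have no test.

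Values in every rat are given for the 4 highest and 4 lowest members in the averaged TBA effect, the 3 highest and 3 lowest between gases, and Hmgcs1, Sqle, Insig1, Srebf2, Fasn and Stard4, which were always included, as were Srebf1 and Scd. Further lists were given by genes that passed or up to 3 with the smallest p, and promoters by smallest p, 3 per branch. Members and lists were chosen with earlier results of these data known. Alternatives were normexp (offset 50), quantile or median scaling, the series table, stricter and no filtering of dim probes, probe means per gene, slide, scan day or replicate number in the model, fewer samples, a trended robust spread and each array left out.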

Additional observations from a re-analysis of the deposited data

How the results depend on the processing

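There were 24 alternatives, 12 of which leave out 1 array; the fit of only the groups compared was run for TBA minus vehicle within each gas and not for the other comparisons. No member passed under isoflurane or in the averaged TBA effect as reported. With normexp 1 passed in each, and with a trended, robust spread 1 in each, Dhcr7 in all 4 cases. In the averaged effect leaving out 1 array gave 0 to 1 members, the 1 being Me1 without TBA isoflurane replicate 1. No other alternative gave a member that passed, in any of the 5 comparisons. The median of the fatty acid enzymes under CO2-O2 was -0.105 when scan day entered the model, which set TBA CO2-O2 replicate 3 alone against the vehicle rats. With 1 array left out this median ranged from -0.158 without TBA CO2-O2 replicate 2 to 0.007 without vehicle CO2-O2 replicate 1. The other branch medians moved by less than their SD between rats (0.066 for sterol enzymes, 0.088 for fatty acid enzymes). Numbers do not pair the rats: same-numbered arrays correlated at -0.133 to 0.133 in their deviations, different-numbered at -0.191 to 0.222. With the replicate block 0 members passed in any comparison, and 3, 0, 167, 0 and 69 features did, in the order in which the 5 comparisons were given. Counts over all features moved more: they ranged from 1 to 162, 0 to 98, 73 to 992, 0 to 5 and 17 to 93 with 1 array left out, and from 3 to 108, 0 to 1334, 63 to 1091, 0 to 43 and 12 to 285 otherwise. The cause was not tested. A single dose and 3 rats a group limit what small differences could be seen, Scd was too dim to test, and Srebf1 was not measured.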
